A study of Mus musculus with 12 samples.

Results

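Removal of the type I interferon receptor from Usp18-deficient mice was examined in brain by setting the 3 arrays of the double knockout, USP18ko:IFNARko, against the 3 arrays of the single knockout, USP18ko. These 6 arrays were chosen by their titles from a series of 12, in which the other groups are 3 wild-type (WT) arrays, used here to place the level of each gene, and 3 arrays of the receptor knockout alone, IFNARko. All mice were adult, untreated and kept free of specific pathogens, and RNA came from lysates of whole brain, 1 Affymetrix expression array per sample. USP18ko mice lack Usp18 and keep the receptor, IFNARko mice lack the receptor chain Ifnar1 and keep Usp18, double knockout mice lack both, and WT mice lack neither. Loss of Usp18 is therefore common to both groups compared, and only the Ifnar1 genotype separates them in the labels. The sources used here do not give strain, sex, the way the alleles were made or whether 1 replicate is 1 animal, so p-values measure only how these samples vary, and that variation may be technical.

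Type I interferons bind a receptor built from the chains IFNAR1 and IFNAR2, which activates the kinases JAK1 and TYK2. The signal reaches a transcription factor complex that contains IRF9 and binds interferon-stimulated response elements in front of a large set of antiviral and immune genes. USP18 is itself the product of an interferon-induced gene. It removes the ubiquitin-like protein ISG15 from other proteins, and it also sits on IFNAR2 and damps the receptor's signal, a role for which it is known in microglia, the resident macrophages of the brain. The comparison asks which transcripts of Usp18-deficient brain depend on the receptor, and whether they come to lie at the level of WT brain once it is gone.

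Levels were compared for 12393 genes as log2 signals with limma in 1 fit of all 12 arrays, and a gene was called at a Benjamini-Hochberg adjusted p under 0.05 over all genes. A log2 difference of 1 is a doubling of the signal. Every adjusted p given for a gene comes from that fit, SE is the standard error of the fitted difference, and each difference is the double knockout minus USP18ko unless another is named.

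The targeted genes were examined first. Ifnar1 read 8.01, 7.76 and 7.97 in the USP18ko arrays and 6.56, 6.56 and 6.68 in the double knockout arrays. It read 8.21, 7.44 and 7.85 in WT and 6.24, 6.59 and 6.47 in IFNARko. Every array of a genotype lacking Ifnar1 was below every array of a genotype that keeps it, and the transcript was lower by 1.31 in the double knockout (SE 0.17, adjusted p = 4.68e-04). Usp18 read 3.76, 3.58 and 3.55 in USP18ko and 3.50, 3.71 and 3.69 in the double knockout, both below the WT arrays at 4.36, 4.36 and 4.04, with a difference between the knockouts of 0.01 (SE 0.12, adjusted p = 1.00). IFNARko arrays, which are labelled as keeping Usp18, read 3.55, 3.67 and 3.53. The sources used here do not say where these probe sets lie relative to the deleted parts.

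Some arrays stood apart from the others of their group. Xist, the RNA that coats the inactive X chromosome, read 11.21, 10.34 and 11.34 in the double knockout arrays and 5.69, 5.03 and 5.45 in USP18ko, and within WT it read 10.17 in replicate 1 and 5.26 and 5.11 in the others. Eif2s3y, on the Y chromosome, read 3.05, 7.16 and 3.22 in the double knockout and 7.26, 8.25 and 7.71 in USP18ko. Double knockout replicate 2 thus carried both signals, and sex-linked transcripts differed between the groups compared. Beta-actin probe sets at the 3' and 5' ends, whose difference reflects how intact the labelled RNA was, differed by 1.48 in IFNARko replicate 1 and by 0.20 to 0.54 in each of the remaining arrays. Markers of brain were high in both groups, with the synaptic gene Snap25 at 11.89, 12.11 and 11.69 in USP18ko and 11.90, 11.74 and 11.89 in the double knockout.

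The genes with the largest falls differ in what lies in front of them, and the sequences are shown because an interferon-stimulated response element is the textbook landing site of the receptor's transcription factor. RefSeq promoter windows of build GRCm38.p6, each from 250 bases before to 50 bases after a gene's start, were found for 135 of the 184 genes that fell. They were searched on both strands for the core GAAANNGAAA, read on the other strand as TTTCNNTTTC. Stretches of 80 bases that hold a match are printed 5′ to 3′ along the gene's own strand, with the matches in capitals.
Cxcl10 (chr5:92349060-92349139, minus strand): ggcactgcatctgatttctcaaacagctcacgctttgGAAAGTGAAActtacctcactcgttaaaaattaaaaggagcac
Ifit1 (chr19:34640764-34640843, plus strand): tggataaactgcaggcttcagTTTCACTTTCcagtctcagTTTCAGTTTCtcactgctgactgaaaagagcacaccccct
Rsad2 (chr12:26456533-26456612, minus strand): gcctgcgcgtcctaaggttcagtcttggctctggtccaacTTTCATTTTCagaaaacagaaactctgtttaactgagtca
Ifit3 (chr19:34583367-34583446, plus strand): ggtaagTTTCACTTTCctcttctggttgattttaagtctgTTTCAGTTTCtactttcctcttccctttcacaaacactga
Gbp2 (chr3:142620564-142620643, plus strand): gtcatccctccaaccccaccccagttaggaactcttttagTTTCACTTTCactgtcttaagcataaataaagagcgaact
Igtp (chr11:58199476-58199555, plus strand): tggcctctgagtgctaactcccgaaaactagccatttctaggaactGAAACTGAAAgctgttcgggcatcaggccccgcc

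In these windows the match began 213 bases before the start of Cxcl10, 120 before Rsad2, 59 before Gbp2 and 34 before Igtp. Ifit1 and Ifit3 had 2 matches each, the nearer of them beginning 85 bases before the start of Ifit1 and 122 before that of Ifit3. Of all 27025 genes with a window, 1079 (3.99%) held a match, and of the genes tested 3.84%. Among the genes that fell, 32 of 135 (23.7%) did, and the share was 21 of 46 (45.7%) for falls of at least 2, 4 of 50 (8.0%) for falls of 1 to 2 and 7 of 39 (17.9%) for smaller ones. A second motif, the gamma-activated site TTCNNNGAA, which reads the same on both strands, was in the windows of 27 of the 135 genes (20.0%). It was in those of 9.55% of all genes and 8.45% of the genes tested. Both motifs overlapped in 4 of 162 windows of the genes that fell, 8 of 12566 of the genes tested and 24 of 32851 in all. Ccl12, Ifi202b, Oasl2, Lgals3bp, Plac8 and Irf7, also among the largest falls, had windows without a response element match, which says only that these letters are not in these windows.

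Many more genes were lower than higher in Usp18-deficient brain without the receptor. Of the 12393 genes, 184 were lower in the double knockout (1.48%) and 3 were higher (0.0242%), while the median difference over all genes was 0.00. Differences of these genes ran from -5.30 to -0.40 with a median of -1.39: 126 falls were at least 1, 58 at least 2 and 10 at least 4. The counts depended on the fit: array weights gave 395 lower and 105 higher, a fit of only the groups compared 253 and 34, and leaving out single arrays 136 to 226 and 2 to 13. In each of the 184 genes all 3 double knockout arrays lay below all 3 USP18ko arrays, a position that 8.09% of all genes had and that the call itself favours. The set lies low in the arrays' range, since 141 of the 184 genes had a mean signal under the 40th percentile, and in 67 the WT mean was under 5. In whole brain, fewer cells of a type and less RNA per cell cannot be told apart.

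**Figure D1:**
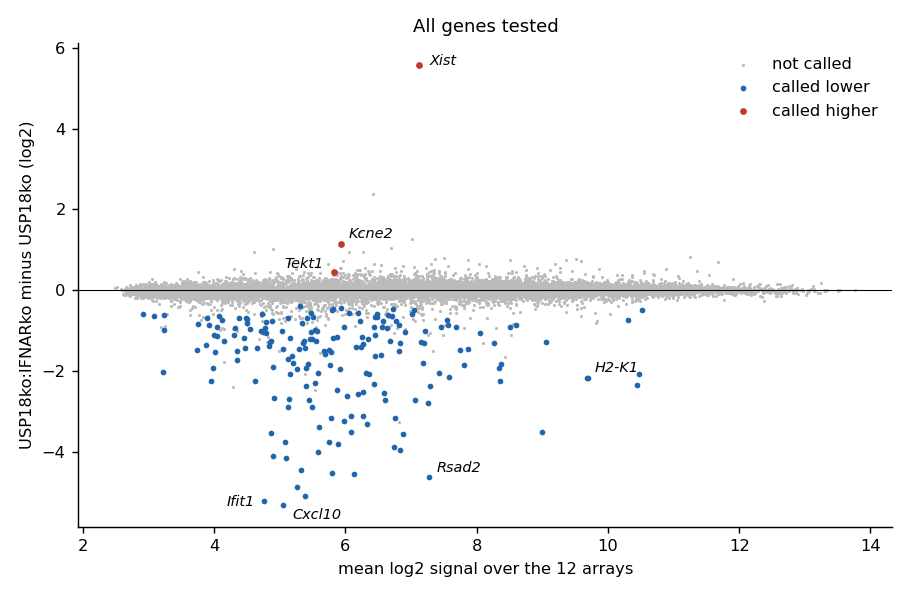
Difference between USP18ko:IFNARko and USP18ko (log2, vertical axis) against the mean log2 signal over the 12 arrays (horizontal axis) for 12393 genes, 1 point per gene; blue points are the 184 genes called lower and red points the 3 called higher. The lowest point is Cxcl10 at -5.30, and the called points above 0 are Xist, Kcne2 and Tekt1.

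Sex-linked transcripts moved with the groups compared, and their part in the falls was not tested. In double knockout replicate 2, which carried Y-linked signal like the USP18ko arrays and high Xist unlike them, the median level of the 184 genes was 5.15, against 5.11 and 5.19 in the other double knockout arrays and 6.89, 7.10 and 7.07 in USP18ko. WT replicate 1, with high Xist, had a median of 5.36, and the other WT arrays 5.51 and 5.40. With that double knockout array as the only one of its group, 86 of the 184 genes were still called, and with the Eif2s3y level in the fit 121 were. The fall kept its sign in all 184 genes in both of these fits. In the first the sign was fixed beforehand, since every double knockout array lay below every USP18ko array in each of these genes. The medians are also of genes chosen on these same arrays. With 1 array standing for its group, its spread is assumed to be that of the other groups.

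The largest falls were in chemokine, antiviral and GTPase genes. Cxcl10, a chemokine that attracts activated lymphocytes, read 9.42, 8.77 and 8.57 in USP18ko and 3.52, 3.49 and 3.84 in the double knockout, against 3.94, 4.04 and 3.78 in WT (difference -5.30, SE 0.19, adjusted p = 3.89e-09). Ifit1, which encodes an RNA-binding protein that blocks translation of viral RNA, read 8.52, 8.36 and 8.84 in USP18ko, 3.66, 3.15 and 3.31 in the double knockout and 3.69, 3.90 and 3.52 in WT (difference -5.20, SE 0.20, adjusted p = 6.22e-09). In both genes the double knockout arrays reached into or below the range of WT, far under every USP18ko array. Iigp1, an immunity-related GTPase that attacks parasite vacuoles, read 9.30, 8.68 and 8.78 in USP18ko, 3.81, 3.74 and 3.93 in the double knockout and 4.22, 4.52 and 4.11 in WT (difference -5.09, SE 0.37, adjusted p = 2.12e-06). Rsad2, the antiviral protein viperin, read 10.81, 10.64 and 10.43 in USP18ko, 6.02, 5.68 and 6.31 in the double knockout and 6.51, 6.80 and 6.40 in WT (difference -4.62, SE 0.23, adjusted p = 7.09e-08). For both of these the double knockout arrays were below every WT array as well.

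Ifit3, a partner of Ifit1, read 9.59, 9.32 and 9.55 in USP18ko and 4.78, 4.98 and 5.07 in the double knockout (difference -4.54, SE 0.13, adjusted p = 5.98e-10). Irf7, the transcription factor that amplifies interferon production, read 8.66, 8.24 and 8.66 in USP18ko and 4.81, 4.69 and 4.79 in the double knockout (difference -3.76, SE 0.12, adjusted p = 1.33e-09). Arrays of 1 genotype lay close together for both genes, and the WT arrays, at 5.18, 5.53 and 5.16 for Ifit3 and 5.22, 5.12 and 5.04 for Irf7, were just above the double knockout. The remaining 9 of the 15 largest falls were in Ifi27l2a (-4.87), Rtp4 (-4.52), Ccl12 (-4.44), Ifi202b (-4.15), Oasl2 (-4.10), Gbp2 (-3.99), Igtp (-3.94), Lgals3bp (-3.87) and Plac8 (-3.81). Oasl2 and Rtp4 are antiviral effectors, Ifi202b belongs to a family of DNA-binding proteins, Ccl12 attracts monocytes, Gbp2 and Igtp are interferon-induced GTPases, and Plac8 is abundant in blood monocytes. With the probe sets of a gene averaged, Rtp4 fell by 2.59, and its second probe set had a difference of -0.66 (adjusted p = 0.0666). Over the 15 genes, USP18ko arrays read 7.26 to 10.81, double knockout arrays 3.15 to 6.31 and WT arrays 3.52 to 6.80, and the highest adjusted p was 5.07e-04, for Gbp2. Gbp2 also read 6.97 in IFNARko replicate 1, the array with the high actin difference, against 4.47 and 4.24 in the others of that genotype. It was the only 1 of the 15 to lose its call in any alternative, with an adjusted p of 0.0555 where double knockout replicate 2 alone stood for its group.

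**Figure D2:**
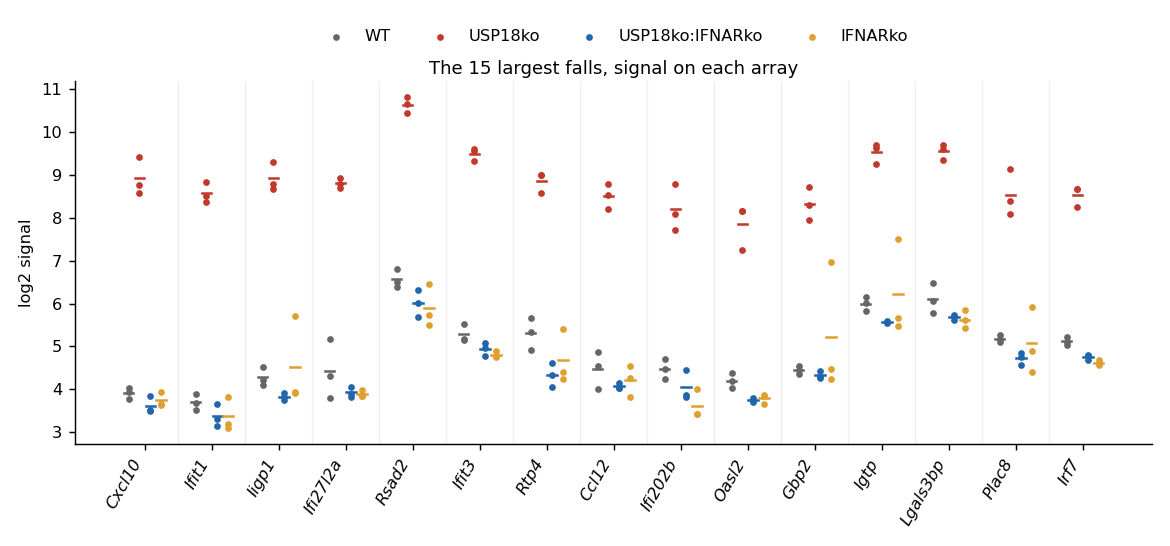
Log2 signal on every array (vertical axis) of the 15 genes with the largest falls (horizontal axis), with 1 point per array and a bar at each group's mean, n = 3 arrays per group. USP18ko arrays lie between 7.26 and 10.81, above all other arrays of the same gene, and the double knockout arrays lie below all WT arrays in 9 of the 15 genes. Single arrays stand apart within a group, such as IFNARko replicate 1 at 6.97 for Gbp2 and WT replicate 2 at 5.18 for Ifi27l2a.

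Set against WT, most genes that fell lay at about the wild-type level or slightly under it in the double knockout. Only Ifnar1 itself and Pnpla3, a lipid droplet protein, differed from WT in the double knockout with an adjusted p under 0.05, or 2 of 184, beside 0.0161% of all genes. At an unadjusted p under 0.05 there were 27 of the 184 (14.7%), beside 507 of all genes (4.09%). The double knockout minus WT difference had a median of -0.20 over the 184 genes and ran from -1.49 to 0.31. Its 95% interval covered 0 in 157 genes, lay wholly within 1 of WT in 167 and within 0.5 in 58. The double knockout level was thus placed within 1 of WT on the log2 scale for most of them but within 0.5 for fewer. A level within 1 of WT does not by itself show a return, since 58 of the 184 falls were themselves under 1. In 6 of the 184 genes the USP18ko arrays already overlapped WT. USP18ko minus WT had a median of 1.22 over the same genes. The 3 differences share arrays and the genes were chosen by 1 of them, so the values are given side by side and no relation between them is tested.

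Array by array, the double knockout overlapped the WT arrays in 130 of the 184 genes (70.7%), lay below all of them in 53 (28.8%) and above all of them in 1, Xdh. Over all genes, 10.3% had the double knockout below WT and 4.08% above it. In the 53 genes the difference from WT ran from -1.49 to -0.09 with a median of -0.31, and 22 of them had an unadjusted p under 0.05. Rtp4 was the largest of these after Pnpla3 and Ifnar1, with double knockout arrays at 4.33, 4.06 and 4.61 and WT arrays at 5.35, 5.67 and 4.92 (difference -0.98, 95% interval -1.58 to -0.37, adjusted p = 0.995). The interval left out 0, while the adjusted p did not pass. Xdh, which encodes xanthine dehydrogenase, read 3.95, 3.99 and 4.01 in the double knockout and 3.88, 3.89 and 3.91 in WT, a small step beside its difference of -0.64 from USP18ko (adjusted p = 0.0017). USP18ko arrays lay above all WT arrays in 178 of the 184 genes (96.7%), as they did in 4.07% of all genes. The 184 genes were chosen for low double knockout and high USP18ko arrays. That choice by itself moves both positions against WT away from the shares over all genes.

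**Figure D3:**
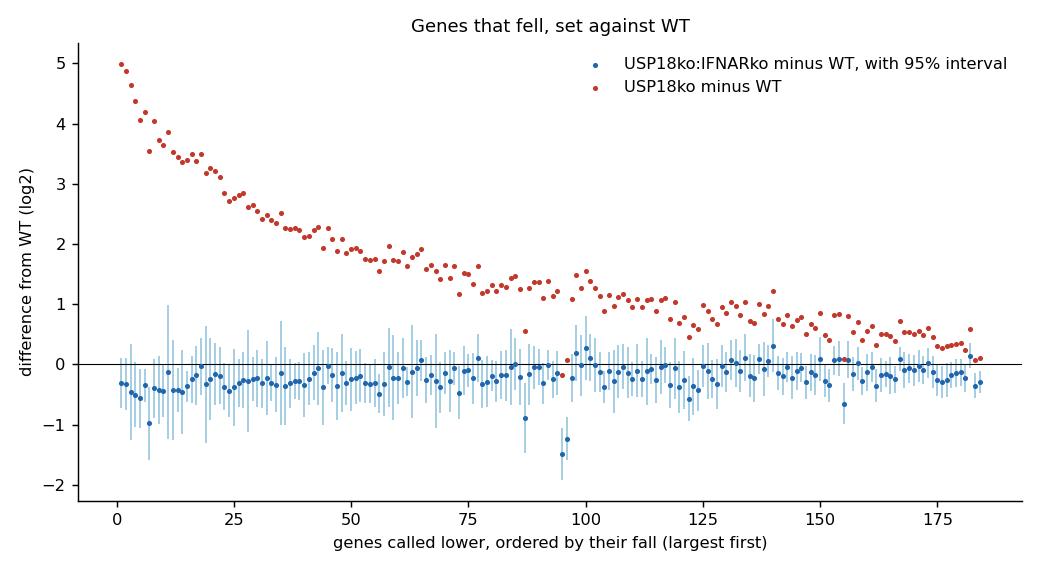
Difference from WT (log2, vertical axis) of the 184 genes that fell, ordered by the size of their fall (horizontal axis, largest first); red points are USP18ko minus WT and blue points USP18ko:IFNARko minus WT with 95% intervals from the fit. Blue points stay near 0 along the whole order, with a median of -0.20, and those furthest below it are Pnpla3 (-1.49), Ifnar1 (-1.23), Rtp4 (-0.98) and H2-Bl (-0.89).

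Genes were then read by their roles. Among 38 measured interferon-stimulated effectors, 35 fell and 0 rose, with a list median of -2.12 beside 0.00 over all genes. The mean level of the list was 7.46 to 7.50 in the USP18ko arrays, 5.02 to 5.13 in the double knockout and 5.26 to 5.44 in WT. The other members did not pass. Ifi44l read 3.87, 6.99 and 7.10 in USP18ko and 3.36, 3.54 and 3.91 in the double knockout (adjusted p = 0.107), so that 1 USP18ko array was near the low level. Slfn8 had a difference of -0.96 (adjusted p = 0.557) and Oas1b of -0.41 (adjusted p = 0.598). The lists and their members were selected with results of these data known, and members named beyond the 4 with the smallest p of a list were picked after their values were seen.

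Immunity-related GTPases and guanylate-binding proteins, which disrupt the vacuoles of intracellular pathogens, were the list with the lowest median, -3.52, and all 10 measured members fell. After Iigp1, Gbp2 and Igtp the largest were Gbp6 (-3.75, adjusted p = 6.58e-08), Gbp2b (-3.53), Gbp3 (-3.51), Irgm1 (-3.14) and Ifi47 (-3.10). The mean level of the list was 8.14 to 8.58 in USP18ko and 4.84 to 4.93 in the double knockout. In IFNARko it was 6.19 in replicate 1 and 4.84 and 4.80 in the others.

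Of 22 measured genes of interferon receptors and their signalling, 5 fell, with a list median of -0.23: Ifnar1 and the transcription factors Irf7, which the effector list also holds, Irf9, Irf8 and Irf1. Irf9, a DNA-binding part of that transcription factor complex, read 7.31, 7.37 and 7.74 in USP18ko, 6.24, 6.24 and 6.19 in the double knockout and 6.64, 6.55 and 6.59 in WT (difference -1.26, SE 0.12, adjusted p = 3.1e-05). All double knockout arrays of Irf9 were below WT. Irf8, a factor needed by microglia, fell by 1.20 (adjusted p = 1.31e-04), and Irf1 fell by 0.86 (adjusted p = 0.0134) but was not called without any single 1 of 5 arrays, 2 of USP18ko and 3 of the double knockout, with adjusted p of 0.0573 to 0.0879. The partner chain Ifnar2 differed by -0.17 (95% interval -0.49 to 0.14, adjusted p = 1.00). The kinases Jak1 (0.20) and Tyk2 (-0.09) and Stat2 (-0.58) also did not pass.

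Of 4 measured genes of ISG15 conjugation, the ligase Trim25 (-1.28, SE 0.18, adjusted p = 0.0011) and the conjugating enzyme Ube2l6 (-0.93, SE 0.16, adjusted p = 0.0067) fell, and the activating enzyme Uba7 had a difference of -0.21 (adjusted p = 1.00). Ube2l6 read 5.84, 5.17 and 5.41 in USP18ko, 4.43, 4.43 and 4.75 in the double knockout and 4.54, 4.76 and 4.65 in WT. Without double knockout replicate 1 its adjusted p was 0.0507. Among 13 genes of nucleic acid sensing, 7 fell (list median -0.51). Ifih1, which senses long double-stranded RNA in the cytoplasm, read 8.50, 8.23 and 8.60 in USP18ko, 5.80, 5.62 and 5.76 in the double knockout and 5.97, 6.12 and 6.02 in WT (difference -2.72, SE 0.19, adjusted p = 1.49e-06). Dhx58, a related helicase (-2.06), the endosomal RNA receptor Tlr3 (-1.92) and the nucleic acid sensor Zbp1 (-1.83) fell as well. With probe sets averaged, Dhx58 had a difference of -1.10. The adaptor Mavs (-0.05) and the kinase Tbk1 (-0.21), through which several sensors signal, did not pass. Of 4 Aicardi-Goutieres syndrome genes, an inherited interferon disease of the brain, Ifih1 was the 1 that fell, while Samhd1 (-0.34), Adar (-0.26) and Rnaseh2c (-0.03) did not pass.

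Chemokines were lower in nearly every member, though fewer were called. Of 18 measured, 17 had differences under 0, and 11 had an unadjusted p under 0.05, beside 4.95% of all genes. In the list 7 fell (list median -0.61): Cxcl10, Ccl12, Ccl5, Cxcl11, Ccl2, Ccl7 and Ccl4. Ccl3, Ccl8, Cxcl9 and Cxcl16 had an unadjusted p under 0.05 but did not pass. Cxcl11 had a difference of -2.71, which was -1.47 with probe sets averaged. Ccl5, which attracts T cells and monocytes, read 7.33, 8.01 and 7.42 in USP18ko, 4.69, 4.58 and 4.83 in the double knockout and 5.01, 4.93 and 4.89 in WT (difference -2.89, SE 0.17, adjusted p = 3.34e-07). Ccl2, the chief monocyte chemokine, also fell (-1.42, adjusted p = 3.55e-05). Ccl4 fell by 0.57 with an adjusted p of 0.0471, which was 0.0909 with the replicate number as a block, and its call was lost in 21 alternatives, among them the fits without any 1 of 10 arrays (0.0516 to 0.2945; every array but USP18ko replicate 3 and IFNARko replicate 1). Cxcl12 (-0.12) and Cx3cl1 (-0.13), chemokines made in brain without inflammation, did not pass. Of 16 inflammatory cytokine genes 1 fell (list median -0.18). Il18bp, the secreted inhibitor of interleukin 18, read 7.04, 7.17 and 7.48 in USP18ko and 5.89, 5.79 and 5.80 in the double knockout, beside 5.69, 5.90 and 5.91 in WT (difference -1.40, SE 0.12, adjusted p = 8.92e-06). Tnf (-0.18), Il6 (-0.16), Ifng (0.09) and Ifnb1 (-0.19) did not pass, and all lay low in the range with no detection call.

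In class I presentation and the immunoproteasome, 9 of 15 fell (list median -0.99), led by the immunoproteasome subunits Psmb8 (-3.22, adjusted p = 2.23e-07) and Psmb9 (-3.11, adjusted p = 3.34e-07). H2-K1, a classical class I heavy chain, read 11.31, 11.04 and 11.45 in USP18ko, 9.20, 9.03 and 9.09 in the double knockout and 9.39, 9.55 and 9.30 in WT (difference -2.16, SE 0.17, adjusted p = 4.29e-06). Its level shows that falls were not limited to dim probe sets. The peptide transporter Tap2 fell by 1.16. The third immunoproteasome subunit, Psmb10 (-0.54, adjusted p = 0.358), and the general chaperones Canx (-0.05), Calr (0.02) and Pdia3 (0.09) did not pass. In class II presentation 2 of 7 fell (list median -0.87), the lysosomal protease gene Ctss (-2.16, adjusted p = 1.66e-04) and H2-Aa (-1.95, adjusted p = 0.0051). H2-Aa varied in USP18ko, at 6.52, 6.0 and 7.29, and lay at 4.80, 4.59 and 4.55 in the double knockout and 4.81, 5.01 and 4.78 in WT, and its difference was -1.28 with probe sets averaged. The class II chains H2-Eb1 (-0.87, adjusted p = 0.0691) and H2-Ab1 (-0.70, adjusted p = 0.268) and the invariant chain Cd74 (-0.87, adjusted p = 0.163) did not pass. Ciita, the master regulator of class II genes, had a difference of 0.04 (adjusted p = 1.00).

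Complement and microglial genes were mostly lower, and part of them passed. All 12 complement genes had differences under 0, and 11 had an unadjusted p under 0.05, beside 4.95% of all genes. Of 12 complement genes, 9 fell (list median -1.40): C3ar1, the receptor for the C3a fragment, read 6.73, 7.05 and 7.07 in USP18ko, 4.99, 5.0 and 4.75 in the double knockout and 5.35, 5.53 and 5.31 in WT (difference -2.04, SE 0.15, adjusted p = 2.25e-06). C2 (-1.94), Cfb, a protease of the alternative pathway (-1.42), and the integrin chain Itgb2 (-1.39) fell too. C1qa and C1qb, chains of the recognition protein C1q made by microglia, had differences of -1.91 (adjusted p = 0.0120) and -1.82 (adjusted p = 0.0175), while C1qc, at -1.65, did not pass (adjusted p = 0.0652). The C1q chains varied among WT arrays, where C1qa read 6.94, 8.85 and 8.10. C1qa was not called without USP18ko replicate 2 (adjusted p = 0.0777), double knockout replicate 1 (0.0646) or double knockout replicate 3 (0.0549), and C1qb was not called without any 1 of 5 arrays, USP18ko replicates 2 and 3 and each double knockout replicate (0.0626 to 0.110).

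Of 22 genes of activated microglia, 9 fell (list median -1.10) and 17 had an unadjusted p under 0.05, as 614 of all 12393 genes did (4.95%). Cd52, a small surface glycoprotein of leukocytes, read 8.53, 8.71 and 9.09 in USP18ko, 5.29, 5.40 and 5.73 in the double knockout and 5.20, 5.98 and 5.80 in WT (difference -3.30, SE 0.22, adjusted p = 8.71e-07). Fcgr1, a high-affinity receptor for antibodies (-3.16), the lysozyme gene Lyz2 (-2.04) and the bacterial lipoprotein receptor Tlr2 (-1.5) fell with it. Among genes that mark the microglial response to degeneration and amyloid, Lgals3 fell (-1.29, adjusted p = 0.0106). Lgals3 was not called without USP18ko replicate 3, without double knockout replicate 1 or with the Eif2s3y level in the fit. Tyrobp (-1.30), Cst7 (-0.45) and Axl (-0.39) had an unadjusted p under 0.05 but did not pass, and Clec7a (-0.50), Apoe (-0.27), Lpl (-0.15) and Itgax (0.04) had neither. Homeostatic microglia markers had a list median of -0.31, 10 of 11 had differences under 0, 5 had an unadjusted p under 0.05, and 1 fell, Selplg, which is described with the genes whose USP18ko arrays overlapped WT. Csf1r (-0.81), Trem2 (-0.64), Tmem119 (-0.59) and Cx3cr1 (-0.55) were the others with an unadjusted p under 0.05. P2ry12, a purine receptor of resting microglia and the 1 member above 0, read 6.16, 6.56 and 7.16 in USP18ko and 6.97, 6.73 and 6.82 in the double knockout (difference 0.21, 95% interval -0.37 to 0.79, adjusted p = 1.00). The mean level of the homeostatic list was 6.75 to 7.21 in USP18ko, 6.63 to 6.67 in the double knockout and 6.46 to 7.14 in WT.

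Each list of markers of other immune cells held 1 called gene, beside 1.48% of all genes called lower. Counts this small are given without comparing them with that share. Of 17 lymphocyte and NK cell markers 1 fell, Ptprc, the CD45 gene that microglia also express (-2.46, adjusted p = 4.35e-05), and the mean level of the list was 4.50 to 4.75 in USP18ko and 4.36 to 4.44 in the double knockout. The T cell receptor genes Cd3e (-0.21), Cd3g (-0.13) and Cd3d (-0.27) did not pass. Among 10 monocyte and neutrophil markers Plac8 was the 1 that fell, and the list's mean level was 5.92 to 6.0 in USP18ko and 5.15 to 5.75 in the double knockout. Ccr2, the receptor by which monocytes enter tissue, had a difference of -0.21 (adjusted p = 1.00). Ms4a7 was the 1 of 10 perivascular macrophage markers that fell (-2.06, adjusted p = 1.65e-06), and 9 of the 10 had differences under 0. Lyve1 (-0.90), F13a1 (-0.60) and Cbr2 (-0.45) had an unadjusted p under 0.05 but did not pass, and Cd163 had a difference of -0.02. No value here bears on how much any of these cells contributed to the falls, and their part was not tested.

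Markers of cell types of the brain itself were read next. In limma's test, 0 of 14 astrocyte markers, 0 of 20 neuron and synapse genes, 0 of 10 oligodendrocyte and myelin genes, 0 of 7 oligodendrocyte precursor markers and 0 of 9 pericyte markers were called, and at an unadjusted p under 0.05 the only member of these lists was Gfap. Their list medians were 0.00, 0.07, 0.12, 0.14 and 0.17. Over all genes, 1.48% were called lower, 0.0242% were called higher and 4.95% had an unadjusted p under 0.05. In lists this short, counts of 0 are near those shares and are no result about these cell types. Reactive astrocyte genes held 6 that fell of 21 measured, of which Cxcl10, Gbp2, Psmb8 and the complement inhibitor Serping1 (-0.90) are also in other lists here, and Serpina3n (-1.02, adjusted p = 0.0030) and Osmr (-1.0, adjusted p = 0.0372) are not. Osmr, a receptor chain for oncostatin M, was not called without any 1 of 7 arrays, WT replicates 1 and 3, USP18ko replicates 1 and 2 and each double knockout replicate (0.0509 to 0.189). Gfap, the intermediate filament that defines reactive astrocytes, read 9.84, 10.57 and 9.90 in USP18ko, 9.52, 9.50 and 9.38 in the double knockout and 8.93, 10.23 and 9.04 in WT (adjusted p = 0.913). Lcn2 was high in 1 USP18ko array only, at 4.05, 8.32 and 4.28 (adjusted p = 0.927), and the same array, replicate 2, was highest for Gfap. Of 17 endothelial markers 1 fell, the adhesion molecule Icam1 (-1.57, SE 0.19, adjusted p = 3.57e-04), while Vcam1 (-0.34), Cldn5 (0.14) and Pecam1 (0.07) did not pass. In the lists of oxidative phosphorylation, heat shock, immediate early, neuropeptide, meningeal, calcification disease and red blood cell genes 0 were called, with 2 at an unadjusted p under 0.05, Samhd1 and Hspa1b. The same limit on counts of 0 holds for these lists.

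**Figure D4:**
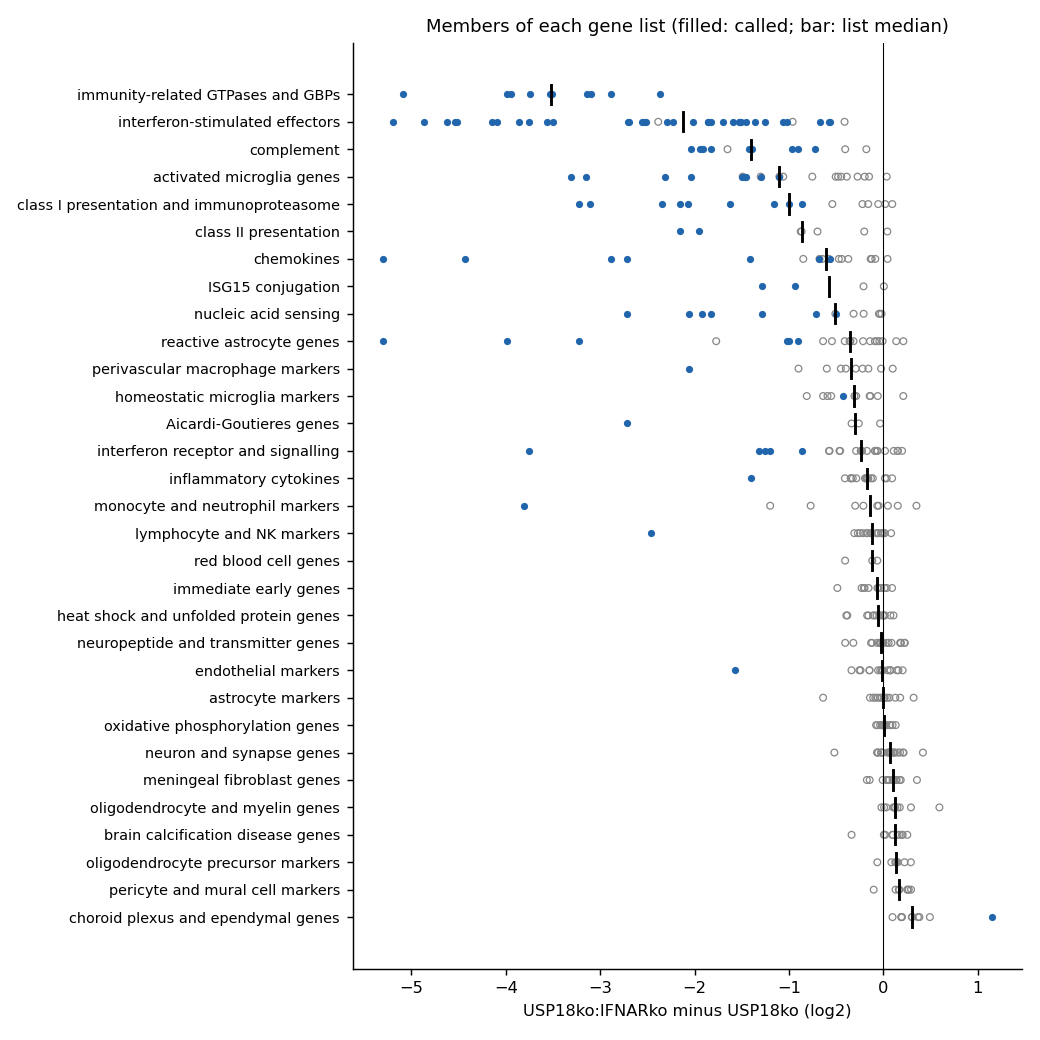
Difference between USP18ko:IFNARko and USP18ko (log2, horizontal axis) of the members of 31 gene lists (vertical axis), 1 point per gene, filled where called and open where not, with a bar at the list median. Medians run from -3.52 for GTPases to 0.30 for choroid plexus and ependymal genes, and filled points to the left of 0 lie mainly in the immune lists.

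Receptor loss with Usp18 present was then set beside the falls. IFNARko minus WT, which shares no array with the double knockout minus USP18ko, had a median of -0.09 over the 184 genes and was negative in 126 of them (68.5%), beside 52.3% of all genes. The interaction, (USP18ko:IFNARko minus USP18ko) minus (IFNARko minus WT), tests whether the effects differ, and it was called lower in 102 of the 184 genes (55.4%), beside 0.823% of all genes called lower and 0.0242% called higher. All 15 of the largest falls were among the 102. The interaction contains the difference by which these genes were chosen, so both counts are raised by that choice. For Cxcl10 the interaction was -5.12, and IFNARko arrays read 3.93, 3.65 and 3.65, next to WT. The other 82 genes had smaller falls, with a median of -0.91, and their interaction was not called, which does not show that the effects were alike. The double knockout and IFNARko, which both lack the receptor, differed by a median of -0.09 over the 184 genes, with 0 genes called over all 12393 and 1022 at an unadjusted p under 0.05 in limma's test.

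In 6 of the 184 genes the USP18ko arrays overlapped the WT arrays: Ifnar1, Pnpla3, H2-Bl, Mx2, Cbr3 and Selplg. USP18ko minus WT was 0.08 for Ifnar1, -0.17 for Pnpla3, 0.08 for Cbr3 and 0.07 for Selplg, and it was higher for H2-Bl (0.55, 95% interval -0.03 to 1.13) and Mx2 (0.46, 95% interval 0.09 to 0.82), none with an adjusted p under 0.05. Pnpla3, a lipid droplet protein of fat metabolism, read 6.77, 7.03 and 6.70 in USP18ko and 6.97, 7.06 and 6.99 in WT, against 5.62, 5.53 and 5.40 in the double knockout and 6.30, 5.27 and 5.62 in IFNARko (difference -1.32, SE 0.20, adjusted p = 0.0023). Both groups without the receptor were below both groups with it, and the double knockout differed from WT by -1.49 (95% interval -1.92 to -1.05, adjusted p = 0.0394). The same held for Ifnar1 (-1.23, 95% interval -1.59 to -0.87, adjusted p = 0.0394). These calls against WT were both lost with the replicate number as a block, where 0 genes passed, and without any 1 of WT replicates 1 and 3, USP18ko replicates 1 and 3, IFNARko replicate 3 and each double knockout replicate, where 0 genes passed either, and 1 gene passed without USP18ko replicate 2 or IFNARko replicate 2.

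H2-Bl, a class I gene outside the classical set, read 6.09, 5.95 and 6.54 in USP18ko, 4.93, 4.63 and 4.68 in the double knockout, 5.85, 4.85 and 6.22 in WT and 4.67, 4.51 and 4.57 in IFNARko (difference -1.44, SE 0.27, adjusted p = 0.0120). Again the groups without the receptor lay together, below USP18ko, although 1 WT array was as low as a double knockout array. It was not called without USP18ko replicate 3 (adjusted p = 0.0798) or double knockout replicates 2 (0.0697) or 3 (0.0650). Cbr3, a carbonyl reductase, read 8.05, 7.92 and 7.80 in USP18ko, 7.18, 7.29 and 7.09 in the double knockout and 7.75, 7.64 and 8.12 in WT (difference -0.74, adjusted p = 0.0321). Selplg, a ligand of selectins that microglia express, read 6.21, 6.08 and 6.16 in USP18ko, 5.71, 5.71 and 5.73 in the double knockout and 5.95, 6.22 and 6.05 in WT (difference -0.43, adjusted p = 0.0413). With the replicate block the adjusted p was 0.0553 for Cbr3 and 0.0961 for Selplg, and each also lost its call without any single USP18ko or double knockout array (0.0657 to 0.167 for Cbr3). For Selplg the same held without WT replicate 3 or IFNARko replicates 2 or 3 (0.0682 to 0.200 over these 9 arrays). Mx2, an antiviral GTPase, fell by 1.02 (SE 0.17, adjusted p = 0.0048), with arrays at 6.12, 6.06 and 5.89 in USP18ko, 5.14, 4.75 and 5.11 in the double knockout and 5.91, 5.38 and 5.42 in WT, of which 1 lay above the lowest USP18ko array.

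Neighbours of Ifnar1 were read separately, because they lie beside the altered locus. Of 31 measured genes within 2 Mb of Ifnar1 in the reference gene order, 2 were called. Over all genes, 1.48% were called lower and 0.0242% higher. Il10rb, the shared chain of receptors for interleukin 10 and type III interferons, read 7.27, 7.49 and 7.21 in USP18ko, 6.77, 6.95 and 6.77 in the double knockout and 6.92, 7.09 and 6.93 in WT (difference -0.49, SE 0.11, adjusted p = 0.0430). Its adjusted p was 0.0557 with the replicate block, and its call was lost in 17 alternatives, among them the fits without any 1 of 9 arrays, WT replicate 3, IFNARko replicates 2 and 3 and each USP18ko and double knockout replicate (0.0619 to 0.253). The other was Kcne2, 1 of the 3 genes that rose. Ifnar2 and Ifngr2 (-0.07), the receptor chains nearest in function, were not called.

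Kcne2, a potassium channel subunit of the choroid plexus, read 6.35, 6.21 and 6.39 in the double knockout and 5.36, 5.04 and 5.10 in USP18ko (difference 1.15, SE 0.20, adjusted p = 0.0057). WT arrays read 5.77, 6.52 and 5.73 and IFNARko arrays 6.11, 6.56 and 6.12, so USP18ko stood below the other genotypes. The other 9 choroid plexus and ependymal genes measured had differences from 0.10 to 0.49 and were not called. The mean level of the list was 6.74 to 6.97 in USP18ko, 7.22 to 7.24 in the double knockout and 6.97 to 7.33 in WT, and the part of tissue content in the rise of Kcne2 was not tested. Tekt1, a protein of cilia, read 5.91, 6.13 and 6.13 in the double knockout and 5.63, 5.60 and 5.57 in USP18ko (difference 0.46, SE 0.10, adjusted p = 0.0357). WT arrays, at 5.54, 5.69 and 5.66, were all below the double knockout, and IFNARko arrays, at 6.10, 6.08 and 5.94, were level with it. Its adjusted p was 0.0698 with the replicate block, and it lost its call without any 1 of 7 arrays: WT replicate 3, each USP18ko replicate, double knockout replicates 2 and 3, and IFNARko replicate 2 (0.0578 to 0.213).

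The third gene that rose was Xist (5.58, SE 0.97, adjusted p = 0.0067), whose levels by array are given with the array checks and follow no genotype within WT. The next genes by p among those with higher values did not pass: Abcb10 had a difference of 0.43 (adjusted p = 0.0577) and Mid1, on the X chromosome, of 0.94 (adjusted p = 0.0716). Without IFNARko replicate 1 the number of genes that rose was 13, without WT replicate 1 it was 7, and without WT replicate 2 or USP18ko replicate 2 it was 5, so the count of rises depends on those arrays.

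**Figure D5:**
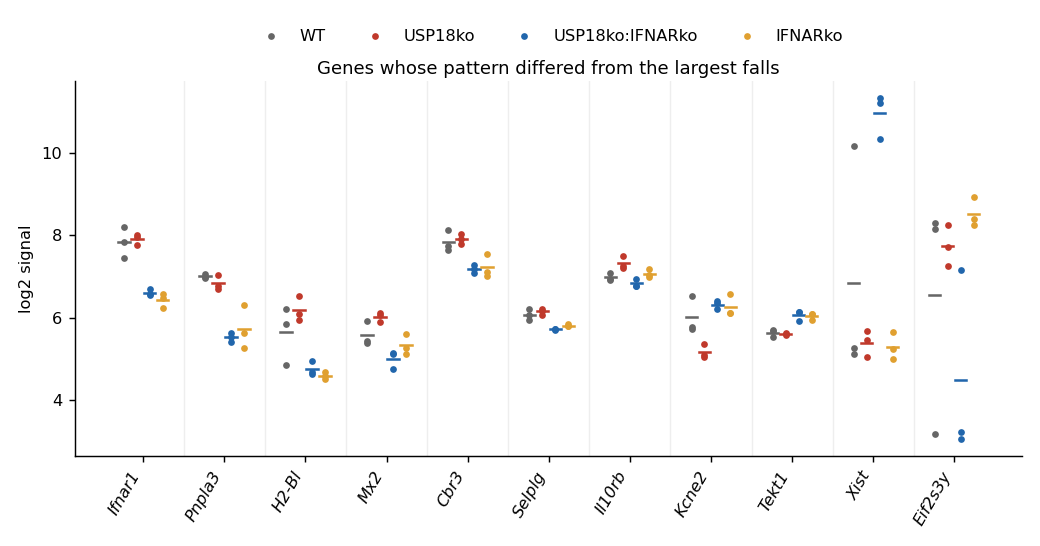
Log2 signal on every array (vertical axis) of genes that departed from the common pattern (horizontal axis), 1 point per array and a bar at each group's mean, n = 3 arrays per group. Ifnar1, Pnpla3 and H2-Bl lie low in both genotypes without the receptor, Kcne2 is lowest in USP18ko, and Xist and Eif2s3y split the WT arrays, with Xist at 10.17 in 1 of them.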

How the data were processed

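Whole-brain RNA of 12 mouse samples, 3 per genotype, was measured on 1-colour Affymetrix arrays. Each deposited value is the authors' log2 signal of a probe set. The submitters' processing notes name the R package affy; version, background correction, normalization and probe summary were not given in the sources used here. Base 2 was inferred from the range, 2.36 to 13.81. Without scanner files, low signals have no detection call.

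Of 22690 probe sets, 20380 had 1 gene in the platform annotation, and each of 12393 genes was represented by its brightest probe set on average. 691 probe sets with several genes and 1555 without a listed gene were tested apart. Genotype was the only term in limma 3.58.1 (R 4.3.3), with 8 residual and 4.67 prior degrees of freedom and two-sided tests adjusted by Benjamini-Hochberg. An exact test of 3 against 3 arrays cannot go below p = 0.10, so calls rest on the spread shared across genes.

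Members, gene lists and most alternatives were chosen with earlier results of these data known. Named genes are Ifnar1, Usp18, the 15 largest falls and 10 largest rises without overlap, up to 4 called members of each list by p, the 5 falls furthest from WT, and up to 5 called genes whose USP18ko arrays overlap WT. Where under 5 genes were called in a direction, the 5 with the smallest p are included. Of 509 list entries, 76 had no value. Deviations from group means of same-numbered double knockout and USP18ko arrays correlated at 0.16, 0.27 and 0.14. USP18ko and WT arrays gave -0.04, 0.22 and 0.12, and double knockout and WT arrays 0.04, 0.03 and -0.02. On the evidence of the data and not of the labels, the replicate number was therefore fitted as a block in an alternative. The main fit ignores any pairing, and arrays of unlike number were not compared. Alternatives were other probe set choices, a filter on low signal, quantile normalization, median centring, array weights, a trended robust variance, a fold threshold, the replicate block, fewer groups in the fit, an Eif2s3y covariate and each array left out. Fits with only the double knockout that has the Y-linked signal, without IFNARko replicate 1 and WT replicate 1 together, and of only the groups compared with the block were added after the data were seen.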

Additional observations from a re-analysis of the deposited data

Results flagged for a closer look

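The effect of receptor loss differed between mice without and with Usp18 for 45 named genes that fell, by limma's test of the interaction, (double knockout minus USP18ko) minus (IFNARko minus WT). Among chemokine and antiviral genes it was -5.12 for Cxcl10, -4.87 for Ifit1, -4.33 for Ifi27l2a, -3.95 for Rsad2, -4.06 for Ifit3, -3.89 for Rtp4, -4.18 for Ccl12, -3.30 for Ifi202b, -3.68 for Oasl2, -3.38 for Lgals3bp, -2.67 for Ccl5 and -1.31 for Ccl2. Among GTPases it was -5.34 for Iigp1, -4.76 for Gbp2, -4.16 for Igtp, -3.64 for Gbp6, -3.08 for Gbp2b and -3.27 for Ifi47, and 4 of these read higher in IFNARko replicate 1 than in any WT array or the other IFNARko arrays (Iigp1 5.72, Gbp2 6.97, Igtp 7.51, Ifi47 6.34). Transcription factors and sensors followed with -3.26 for Irf7, -1.07 for Irf9, -1.08 for Irf8, -1.23 for Trim25, -1.80 for Tlr3, -2.91 for Ifih1, -1.67 for Dhx58 and -1.58 for Zbp1.

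In antigen presentation and complement the interaction was -2.85 for Psmb8, -2.88 for Psmb9, -1.69 for H2-K1, -0.86 for Tap2, -2.19 for Ctss, -1.70 for C3ar1, -1.21 for Itgb2, -1.62 for C2, -1.36 for Cfb and -1.09 for Serping1. In genes of microglia and other cells it was -3.01 for Fcgr1, -3.03 for Cd52, -1.20 for Tlr2, -1.91 for Lyz2, -1.97 for Ms4a7, -2.77 for Ptprc, -3.71 for Plac8, -1.82 for Icam1 and -1.66 for Il18bp. For Xist it was 7.13, and its level follows single arrays within WT. The named genes were chosen by the double knockout minus USP18ko difference, which the interaction contains.

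Outside the genes described, 33 probe sets with several genes or no listed gene were called in the double knockout minus USP18ko, 32 lower and 1 higher, of 2246 tested. Among the 12393 genes, 184 were called lower and 3 higher. The falls of these probe sets ran from -5.45 to -0.57. The lowest, in a probe set listed with several genes, was beyond that of Cxcl10 (-5.30).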

How the results depend on the processing

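Over up to 27 alternatives per gene, falls changed sign in 0 of 184 genes, and 85 of the 187 called genes kept their call in each alternative that tested them. In fits that only leave out arrays the sign could not change, since double knockout and USP18ko arrays of the 184 genes did not overlap. The main counts were 184 lower, 3 higher, 2 that also differed from WT and 103 that also passed the interaction. Lower calls became 36 above the 40th percentile of signal (of 43 such genes tested), 395 with array weights, 122 with the Eif2s3y covariate, and, in fits added after the data were seen, 86 with only the double knockout that has the Y-linked signal, 277 without IFNARko replicate 1 and WT replicate 1, and 295 in the groups compared with the replicate block. Higher calls became 6 with each probe set by itself, 1 above the 40th percentile, 5 with quantile normalization, 105 with array weights, 34 in only the groups compared, 7 without the IFNARko arrays and, in the added fits, 0 (336 genes at an unadjusted p under 0.05 in limma's test), 34 and 52. Calls that also differed from WT became 0 with each probe set, above the 40th percentile, with quantile normalization, with the replicate block and in the fit with the Y-linked signal, and 1 in only the groups compared, without the IFNARko arrays and with the covariate. Interaction calls became 18, 51 with the covariate and 51 in the fit with the Y-linked signal. The causes were not tested, except that the signal filter tests fewer genes. Leaving out each array in turn gave 136 to 226 lower, 2 to 13 higher, 0 to 2 that differed from WT and 82 to 112 by the interaction. The replicate block gave 175 lower, 3 higher and 100 by the interaction, kept 167 of the 184 calls, and among the genes named in the results removed those of Tekt1, Cbr3, Selplg, Ccl4 and Il10rb.

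Of 75 further probe sets of 47 called genes, 72 had the same direction and 38 were called. Averaging probe sets ended the calls of Tap1 (-0.39, adjusted p = 0.161), Osmr (-0.60, adjusted p = 0.120), Tgm2 (-0.50, adjusted p = 0.108), Lcp2 (-0.39, adjusted p = 0.146), Tlr7 (-0.27, adjusted p = 0.532), Vwa5a (-0.21, adjusted p = 1.00) and Xist (4.04, adjusted p = 0.0631). With 3 arrays per group the smallest fall called was 0.40, and low signals have no detection call, so no statement on absence can be made from them.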

Other observations

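Of the 184 genes that fell, 84 were in none of the lists, and those named here were picked after their values were seen. Their falls had a median difference of -0.99, smaller than that of the whole set at -1.39. The largest was AW112010 (-3.38), an interferon-responsive transcript, followed by the galectin Lgals9 (-2.78) and the membrane proteins Ms4a6d (-2.65, or -1.63 with probe sets averaged), Ms4a6b (-2.61) and Ms4a6c (-2.37), which macrophages express. Phagocyte genes were among them: the pore-forming Mpeg1 (-2.15), the antibody receptor Fcgr4 (-1.90), the oxidase subunits Ncf4 (-1.63) and Ncf1 (-1.05), the scavenger receptor Marco (-1.18) and Acod1 (-1.26), the enzyme that makes itaconate. Tspo (-1.81), the outer mitochondrial membrane protein that tracers of brain inflammation bind, fell too.

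The set also held the myeloid transcription factors Spi1 (-0.90) and Cebpb (-0.85), the inflammatory caspases Casp4 (-1.43) and Casp12 (-0.98), the checkpoint ligand Cd274 (-1.21), the nucleic acid helicase Ddx60 (-2.25), the RNA-editing enzyme Apobec1 (-2.06) and the inflammasome receptors Naip5 (-0.87) and Naip2 (-0.84). Grn (-0.75), the progranulin gene, whose loss causes dementia in people, fell as well. Among the genes named here, calls were lost without any 1 of 8 arrays for Marco (adjusted p = 0.0510 to 0.1996), 6 for Ncf1 (0.0517 to 0.1988) and 4 for Grn (0.0596 to 0.0799), and without double knockout replicate 1 for Cebpb (0.0505), all in limma's test. The interaction, which contains the difference that these genes were chosen by, was called in 26 of the 84 genes.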
